A study of Arabidopsis thaliana with 12 samples.

Results

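The baseline transcriptome of WT rosette leaves was taken from the RNA-seq part of the series, as the 3 libraries labelled WT. They are 3 of the 6 RNA-seq libraries and 3 of the 12 samples of the series, and all 23069 loci of the deposited table were members. Each library came from rosette leaves of 30-day-old Arabidopsis thaliana plants of genotype col (accession Col-0 in the study's methods), which carry no listed mutation or treatment, and the labels give the 3 as independent biological replicates. The other RNA-seq libraries are of the kaku4-2 mutant and the remaining samples are ChIP-seq of histone marks, and neither was compared with the WT here. A rosette leaf is a mixture of cell types, so a low level of a gene can come from fewer cells of a type or from less RNA per cell, and the 2 cannot be told apart.

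A mature leaf is built around photosynthesis. Nuclear genes encode the antenna proteins that hold chlorophyll, most small subunits of photosystems I and II, the small subunit of Rubisco, which fixes CO2, and the ribosomal proteins that keep the leaf supplied with protein. Genes of gametes, seeds and roots are in general not used in leaves.

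Levels are given as deposited FPKM, fragments scaled by transcript length and by the mapped fragments of the library, so levels of different genes are set beside each other per length. The sum over all loci was 1298744 FPKM in replicate 1, 1530891 in replicate 2 and 1767459 in replicate 3. The median gene stood at 4.26, 3.99 and 3.74 FPKM in the same order. Thus replicate 3 held the largest sum and the lowest median, and replicate 1 the reverse. Factors from the median ratio of each gene to its geometric mean were 1.00, 0.999 and 1.00, so the typical gene was on one scale while the sums differed.

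The WT leaf transcriptome was dominated by few genes. The 10 most abundant genes of a library held 10.7%, 11.9% and 12.7% of its FPKM sum in replicates 1, 2 and 3. The 100 most abundant held 35.3%, 38.0% and 38.5%, and the 1000 most abundant 71.3%, 74.1% and 75.4%. All 3 shares were lowest in replicate 1 and highest in replicate 3. The genes needed to reach 50% of the FPKM sum numbered 274, 224 and 212. The genes at or below the median of a library together held 0.976%, 0.788% and 0.617%. The same genes led in each library: 9 genes were among the 10 most abundant in all 3, 27 among the 30 and 90 among the 100. As a mean over the libraries, the leading 10 genes held 11.8% of the sum, 10.8% with organelle loci left out, and 8.93% with nuclear genes also weighted by their annotated transcript length.

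The most abundant locus in every library was ATCG01020 of the chloroplast genome, at 23601, 24938 and 42708 FPKM. Replicate 3 stood apart from the other two. PSBR, a small subunit of photosystem II, followed at 18347, 23579 and 33482 FPKM. CAB3 (LHCB1.2), an antenna protein of photosystem II, stood at 15171, 20124 and 21766 FPKM, and its tandem neighbour CAB2 (LHCB1.1) at 13291, 17236 and 17792 FPKM. A further antenna gene of the LHCB1 group, LHB1B2 (LHCB1.5), stood at 11971, 17648 and 15674 FPKM. Replicate 1 was the lowest for each of these genes.

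Not all leading genes belonged to photosynthesis. MT3 and MT2B encode metallothioneins, small cysteine-rich proteins that bind metal ions. MT3 was measured at 13361, 18344 and 22894 FPKM and MT2B at 11403, 17520 and 21866 FPKM. PDF1.2, a plant defensin known as an output of jasmonate and ethylene signalling, stood at 11272, 14457 and 18297 FPKM, and its copies PDF1.2b and PDF1.2c at means of 9988 ± 3050 and 8407 ± 2277 FPKM (SD, n = 3). AT5G42530, annotated as an uncharacterized protein, ranked seventh at 13042, 17113 and 17055 FPKM. TCTP, the translationally controlled tumor protein, stood at 8047 ± 2059, the lipid transfer protein LP1 at 8241 ± 1993 and ECS1 at 8265 ± 1167 FPKM (SD, n = 3).

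**Figure D1:**
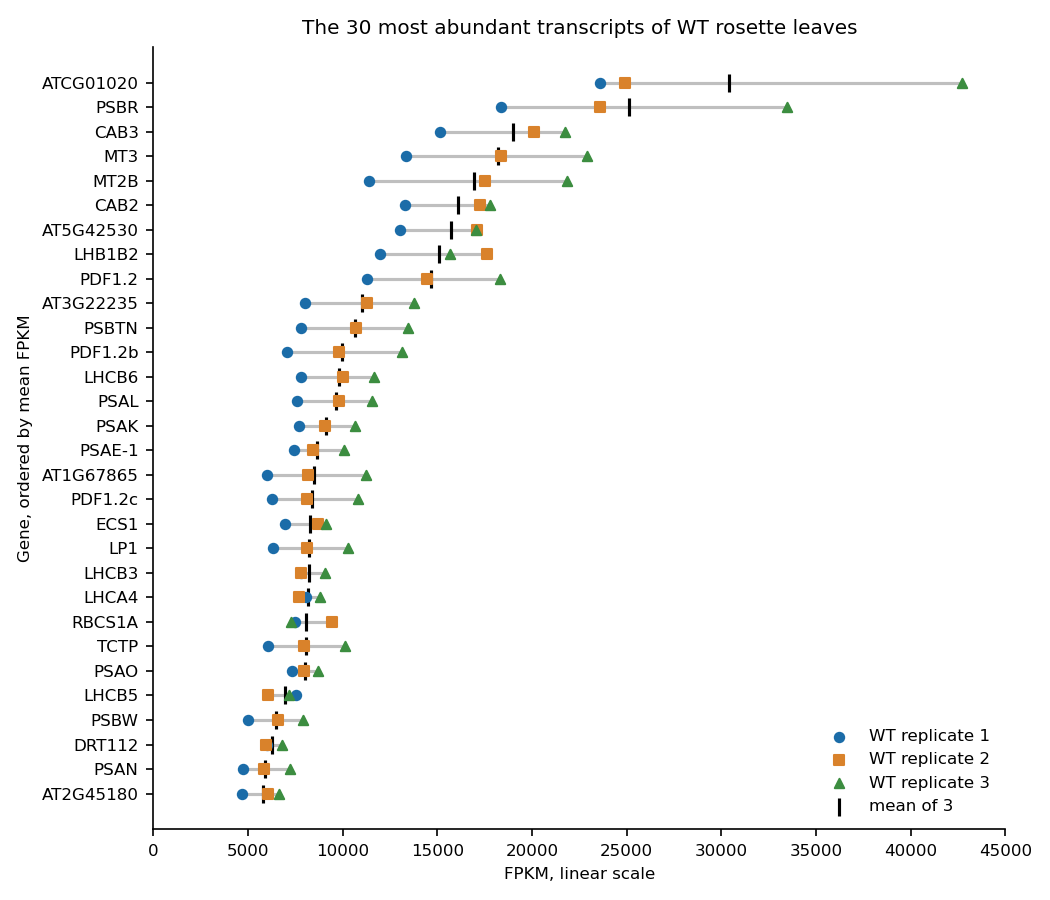
FPKM on a linear axis of the 30 genes with the highest mean over the WT libraries, with each replicate as a point, the range as a grey line and the mean as a tick. Replicate 1 was the lowest in 26 of the 30 genes and replicate 3 the highest in 26, and the range of each gene overlapped that of the next.

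The order among these 30 genes was loose. In all 29 pairs of neighbours in the order, the ranges over the 3 libraries overlapped, and in 9 pairs the same gene was higher in every library. Of the 30 genes, 26 were lowest in replicate 1, 26 were highest in replicate 3, and their CV (SD divided by the mean, after scaling by the factors above) lay between 6.84% (LHCA4) and 35.1% (ATCG01020). Their transcripts were short. The 29 with an annotated transcript had a median length of 958 bases, from 548 (PDF1.2c) to 1389 (LHCB5), against 1605 over all loci with a length.

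By product names and symbols, 16 of the 30 genes encode proteins of the light reactions, and they held 11.3% ± 0.201 of the FPKM sum (SD, n = 3). Among the 100 genes with the highest mean, 39 were of the light reactions and held 16.4% ± 0.455. A further 16 were of ribosomes and translation with 3.17% ± 0.286, and 10 were annotated as defence or stress peptides with 4.40% ± 0.474. Metallothioneins (3 genes) held 2.49% ± 0.351, carbon fixation and photorespiration (9 genes) 2.13% ± 0.244, and lipid transfer and cell wall proteins (6 genes) 1.91% ± 0.165. Another 6 genes annotated as uncharacterized held 2.47% ± 0.0855. These groups were set by key words in product names, and by symbol or synonym for DRT112 and TCTP, after the values were seen.

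Several leading genes lay side by side in the genome. Among the nuclear genes of the 100 most abundant, 6 pairs lay within 10 kb of each other (TAIR10.1 coordinates). CAB3 (chromosome 1, 10472280 to 10473502) and CAB2 (10474656 to 10475969) gave a ratio of 1.18 ± 0.0419 (SD, n = 3), with CAB3 higher in all 3 libraries. LHB1B2 (chromosome 2, 14522524 to 14523568) was 4.01 ± 0.279 times its neighbour LHB1B1 (14524607 to 14525918), another LHCB1 gene. PDF1.3 (chromosome 2, 11087280 to 11088001) stood at 0.382 ± 0.0145 of PDF1.2b (11089123 to 11089805), and PDF1.2 (chromosome 5, 17906968 to 17907638) at 1.76 ± 0.0555 times PDF1.2c (17908850 to 17909507). RBCS3B (chromosome 5, 15376988 to 15378642) was 1.56 ± 0.0394 times RBCS1B (15383167 to 15385320). PCC1 (chromosome 3, 7845823 to 7846833), named for its response to pathogens and the clock, stood at 0.496 ± 0.00841 of AT3G22235 (7854419 to 7855814), which is annotated as a cysteine-rich stress tolerance protein. The ratios moved far less between replicates than the levels did. Ratios of genes that are not neighbours were not worked out. Most genes of this level moved together, with 88.7% of the 247 at 1000 FPKM or more highest in replicate 3. Steady ratios are therefore not shown to be particular to neighbours. The pairs of LHCB1, RBCS and PDF1 genes are near-identical copies, and how fragments were divided between them is not given in the sources used here, so their separate levels are uncertain.

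Taken as whole lists, the photosynthesis genes were present almost without gap. All 22 nuclear photosystem subunits were at 944 FPKM or more as a mean, with a median of 3812 against 4.05 over all loci, and held 7.35%, 7.78% and 7.78% of the FPKM sum. In photosystem II, PSBO1 of the oxygen-evolving complex stood at 4501 ± 931 and its second copy PSBO2 at 1227 ± 107 FPKM (SD, n = 3). NPQ4, the PsbS protein of photoprotection, was even at 2045, 2065 and 2213 FPKM. In photosystem I, PSAL stood at 9658 ± 1988 and PSAK at 9138 ± 1465, and PSAF was lower at 837, 1670 and 1126 FPKM.

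The antenna genes held 7.51%, 7.93% and 6.95%. Of 21 members, 20 had a row, all 20 were at 1 FPKM or more in every library, and LHCB1.3 had no row in the table used here. Their levels spanned a wide range. LHCB4.3, a minor antenna protein, stood at 25.4 ± 0.557 FPKM (SD, n = 3), and LHCB7 (AT1G76570) at 29.2, 32.7 and 32.7 FPKM. The other LHCB4 genes were far higher, LHCB4.1 at 1740, 3066 and 2229 and LHCB4.2 at 3290, 4669 and 4287 FPKM. On the side of photosystem I, LHCA4 led at 8093, 7676 and 8791 FPKM, and LHCA5 and LHCA6 stood at 314, 353 and 422 and at 181, 193 and 209. LHCB2.3 was among the steadiest at 1790, 1839 and 1842 FPKM, while LHCB2.2 ranged over 2591, 4429 and 3146.

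Rubisco and its activase were highest in replicate 2. RBCS1A, the leading small subunit gene, stood at 7464, 9455 and 7264 FPKM, RBCS3B at 3432, 5964 and 4879, RBCS1B at 2154, 3931 and 3103, and RBCS2B at 1080, 2319 and 1505. RCA, the activase that frees Rubisco of bound sugar phosphates, stood at 857, 1635 and 969 FPKM. All 5 genes were highest in replicate 2, as were 6 of 11 Calvin cycle genes, 8 of 20 antenna genes and 7 of 22 photosystem genes, beside 8.91% of all 247 genes at 1000 FPKM or more. The order RBCS1A, RBCS3B, RBCS1B, RBCS2B was the same in each library.

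Among the other carbon genes, the aldolases FBA1 and FBA2 led the Calvin cycle list with 2510 ± 602 and 2552 ± 541 FPKM, and GAPA, a subunit of glyceraldehyde-3-phosphate dehydrogenase, was steadier at 2068, 1816 and 2094. PRK, phosphoribulokinase, stood at 126, 209 and 126 FPKM, and SBPASE, sedoheptulose-bisphosphatase, at 375, 260 and 257. All 11 genes of the list were at 1 FPKM or more in every library. Of the 13 photorespiration genes, AGT, the aminotransferase of peroxisomes, was the most abundant with 2441 ± 479 FPKM, and the glycine decarboxylase H protein GDCH stood at 740 ± 96.8 (SD, n = 3). CAT2, a catalase of leaf peroxisomes, was measured at 132, 243 and 131 FPKM and GLDP1, the P protein of glycine decarboxylase, at 39.4, 72.8 and 32.7, both highest in replicate 2. PGLP1, phosphoglycolate phosphatase, was low at 1.61, 1.06 and 2.68 FPKM, and its near-identical copy AT5G36790 at 2.05 ± 0.328 (SD, n = 3), so the level of this step is uncertain. CA1, carbonic anhydrase, stood at 2493, 3063 and 3567 FPKM and CA2 at 939, 719 and 703.

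**Figure D2:**
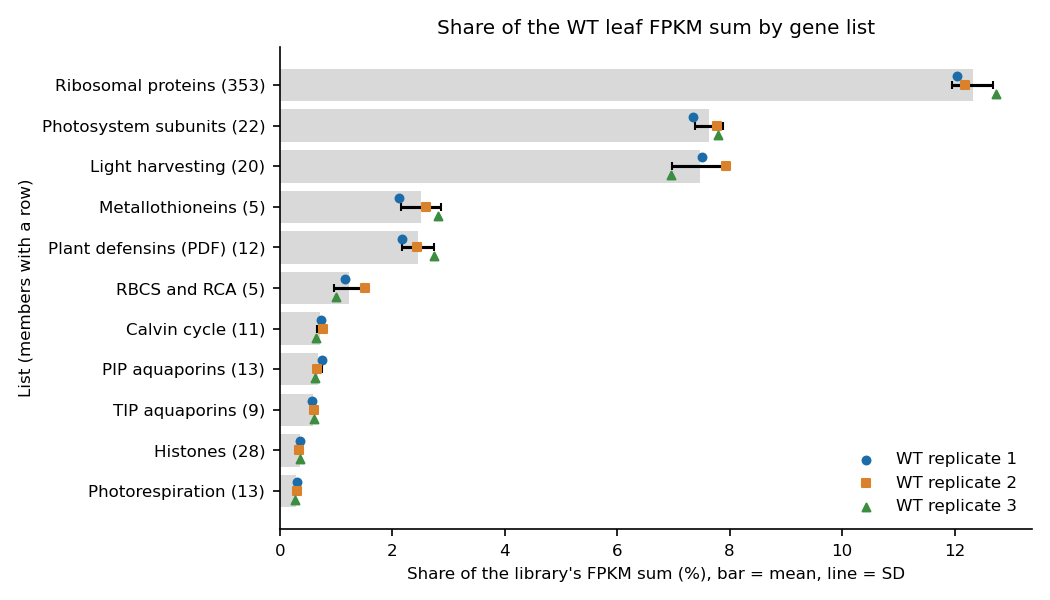
Share of each library's FPKM sum in percent held by the gene lists and families, with each WT replicate as a point, the mean as a bar and the SD as a line. Ribosomal proteins held 12.3% and photosystem subunits and antenna genes 7.64% and 7.46% as means, and the share of RBCS and RCA was highest in replicate 2.

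Ribosomal proteins held the largest share of any family counted, 12.0%, 12.2% and 12.7%. The family was set by product names, less those with words such as kinase, RNA or S5 domain 2. That left out AT5G18380 (mean 3723 FPKM), which is counted above under ribosomes and translation. Of the 374 genes kept, 353 had a row and 332 were at 1 FPKM or more in every library. Their median was 249 FPKM against 4.05 over all loci. The leading member, SSR16, a small subunit protein, stood at 2929, 4084 and 5240.0 FPKM, and AT1G56045, an L41 protein, at 2200, 2948 and 3233. Product names do not always tell the cytosolic from the organelle ribosome, so the 2 were not split. Of the members, 241 were highest in replicate 3, 74 in replicate 1 and 35 in replicate 2, and among all genes of 100 to 1000 FPKM 79.0% were highest in replicate 3.

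The upstream sequence of ribosomal protein genes shared a motif that the choice of the family did not use. GGCCCA, the core of the element named site II, was searched on both strands in the 250 bases before the annotated start of each nuclear protein-coding gene. It was present in 174 of 374 ribosomal protein genes (46.5%), against 13.7% of all 27444. By level, 5.76% of genes with no row held it, 9.71% of the lowest decile of genes above 0 FPKM and 23.8% of the highest decile. AAACCCTA, known as the telo box, was present in 18.7% of ribosomal protein genes and 4.84% of all, but also in 8.11% of genes with no row, so it did not follow the level of all genes. Ribosomal protein genes with GGCCCA had a median of 491 FPKM (164 genes with a row) and those without it 107 FPKM (189 genes). Windows are shown as examples for the 5 most abundant ribosomal protein genes with the motif, so they were picked by level. They are given from RefSeq TAIR10.1, 5′ to 3′ on the strand of the gene, with GGCCCA or its complement TGGGCC in capitals.
SSR16: atgtaaactGGCCCAacatGGCCCAt
AT3G60245: atgatagttcaaaGGCCCAtattaaa
AT4G31985: tcaTGGGCCtTGGGCCgaaacatgaa
AT1G56045: tcaatagttaGGCCCAtttaataggc
emb2171: aaattatttcGGCCCAtaaaataaag
SSR16 and AT4G31985 held the motif at 2 places within 26 bases. The windows lie on chromosome 4 at 16536225 to 16536250, chromosome 3 at 22268662 to 22268687, chromosome 4 at 15469762 to 15469787, chromosome 1 at 20962543 to 20962568 and chromosome 3 at 1167205 to 1167230, in this order. A match of letters is a description and shows no binding.

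The same motifs were counted in the photosynthesis lists, where few genes stand behind each share. CACGTG, the G-box, which reads the same on both strands, lay within 250 bases before the start of 5 of 21 antenna genes (23.8%) and 4 of 22 photosystem genes (18.2%), against 6.57% of all protein-coding genes. By level its share ran from 6.22% to 8.53% over the deciles of genes above 0 FPKM. Windows are shown for the 2 most abundant genes of each list that hold it (RefSeq TAIR10.1, 5′ to 3′ on the strand of the gene, CACGTG in capitals).
LHCB6: aattaatttcCACGTGtcattttatt
LHCA4: atttaattgaCACGTGtaacaacaat
PSBQA: acaaaaatgaCACGTGgttttatatg
PSAH2: acaacccaattcgcCACGTGgcagaa
These lie on chromosome 1 at 5447989 to 5448014, chromosome 3 at 17495106 to 17495131, chromosome 4 at 11334287 to 11334312 and chromosome 1 at 19454772 to 19454797. The antenna genes with the motif had a median of 2345 FPKM (5 genes) and those without it 3773 FPKM (15 genes). GATAAG, the I-box core, on either strand of the same window, was found in 6 of 22 photosystem genes (27.3%) and 4 of 21 antenna genes, in 27 of the 100 most abundant genes and in 12.4% of all. TATAAA, the TATA box, on the strand of the gene within 60 bases before the start, was found in 5 of 21 antenna genes, 1 of 22 photosystem genes and 12 of the 100 most abundant, and in 12.5% of all. GGCCCA was found in 4 of 22 photosystem and 2 of 21 antenna genes. CACGTG was thus not the most frequent of these motifs in the photosystem list, and in the antenna list TATAAA was as frequent.

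Water channels were detected unevenly. The counts here stand beside 53.2% of all protein-coding genes at 1 FPKM or more in every library. All 13 PIP aquaporins of the plasma membrane were at 1 FPKM or more in every library, and PIP2A led at 4477, 4852 and 5563 FPKM. Of 10 TIP aquaporins of the vacuole, 5 (50%) were at 1 FPKM or more in every library. DELTA-TIP stood at 2673, 3904 and 4592 FPKM and TIP2 at 2680, 2907 and 3283, whereas TIP4;1 stood at 1.70, 2.83 and 4.50. Of 29 histone genes found by symbol or product, 27 were at 1 FPKM or more in every library, led by HTA10 at 500, 661 and 771 FPKM.

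Outputs of both main defence hormones were present in untreated WT leaves. PR1, the usual marker of salicylic acid signalling, stood at 429, 524 and 667 FPKM, BGL2 (PR2) at 121, 133 and 105, and PR5 at 293, 289 and 274. Of the jasmonate outputs, VSP2 stood at 340, 273 and 241 FPKM and LOX2, a lipoxygenase of jasmonate synthesis, at 182, 258 and 201. PR5 varied least of the 7 genes of this list, with a CV of 3.51%. SAG12, a marker of late leaf senescence, was at 4.03, 4.79 and 5.35 FPKM.

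Of 10 clock genes, 5 (50%) were at 1 FPKM or more in every library, close to the 53.2% of all protein-coding genes. LHY and CCA1 were the highest of them. LHY stood at 27.9, 18.0 and 17.1 FPKM and CCA1 at 13.2, 10.6 and 6.67, both peaking around dawn in general. Of the genes that peak later in the day, TOC1 stood at 1.87, 1.88 and 1.87, GI at 0.258, 0.520 and 0.146, and PRR5 at 0, 0 and 0.0577 FPKM. PRR9 was 8.13 in replicate 1 and 2.76 and 3.51 in the others. PRR7, a gene of the morning, stood at 1.56 ± 0.264 FPKM (SD, n = 3), below TOC1 in each library. The time of harvest is not given in the sources used here.

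Markers of most cell types of a leaf were detected in part, and so were some of young tissue. The counts here stand beside 53.2% of all protein-coding genes at 1 FPKM or more in every library. The lists are short, so the counts give no result about a cell type. At this level were 3 of 3 markers of the epidermis, 3 of 4 of phloem companion cells, 2 of 4 of xylem and 2 of 3 of trichomes. So were 2 of 2 of myrosin cells, 4 of 6 of the guard cell lineage and none of 1 of the bundle sheath (SULTR2;2 at 2.23, 0.837 and 1.03). Of 3 mesophyll markers, RBCS1A and CA1 were, at means of 8061 and 3041 FPKM, and LHCB1.3 had no row. Among the other lists, PDF1, the protodermal factor, led the epidermis at 58.2, 100.3 and 70.9 FPKM. SUC2, a sucrose transporter, led phloem companion cells at 19.7, 26.3 and 18.8, and XCP2 led xylem at 13.2, 13.1 and 8.19. TRY led trichomes at 23.9 ± 4.11 and the myrosinase TGG1 led myrosin cells at 283, 230 and 154. Others of the same lists were low, such as IRX3, a cellulose synthase of xylem walls, at 0.616, 0.848 and 0.298, GL2 of trichomes at 0.554, 1.14 and 0.579, and HT1 of guard cells at 0.648, 0.624 and 0.0616 FPKM. The stomatal lineage genes MUTE and FMA (FAMA) stood at 2.31 ± 0.331 and 3.69 ± 0.807 FPKM (SD, n = 3). STM, a homeobox gene of the shoot meristem, stood at 11.6, 11.7 and 16.4 FPKM and SYP111 (KNOLLE), a syntaxin of dividing cells, at 18.2, 12.0 and 12.0. Of the 8 markers of dividing cells 6 were at 1 FPKM or more in every library, and of the 6 of the shoot meristem 1 was, STM. The cyclins CYCB1;1 and CYCB1;2 of dividing cells were lower, at 0.564 ± 0.343 and 0.954 ± 0.579 FPKM (SD, n = 3). Among the defining meristem genes CLV3 was listed at 0 in all 3 libraries and WUS had no row. Whether meristem or young tissue was part of the harvest was not tested.

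The spread between replicates was described for 16025 genes with a mean of at least 1 FPKM. Their median CV was 20.2%, with quartiles of 12.9% and 28.4%, and 52.7% of them differed by 1.5 times or less between the highest and the lowest library. Pearson correlations of log2(FPKM + 0.1) across these genes were 0.967 between replicates 1 and 2, 0.965 between 1 and 3, and 0.974 between 2 and 3. They are correlations across genes, which are not independent replicates. Replicates 2 and 3 were the closest pair. Without replicate 1 the median CV was 12.4%, but it rests on 2 samples per gene and is not directly comparable with the 20.2% from 3.

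The spread did not shrink steadily with level. The median CV was 46.4% for genes of 0.1 to 1 FPKM, 24.0% for 1 to 10, 17.2% for 10 to 100, 18.5% for 100 to 1000 and 22.1% for the 247 genes at 1000 or more. In this highest class, 88.7% of the genes were highest in replicate 3 and 90.3% lowest in replicate 1. In the class of 1 to 10 FPKM, 22.3% were highest in replicate 3 and 46.4% highest in replicate 1. The replicates thus differed in opposite directions at high and at low levels.

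**Figure D3:**
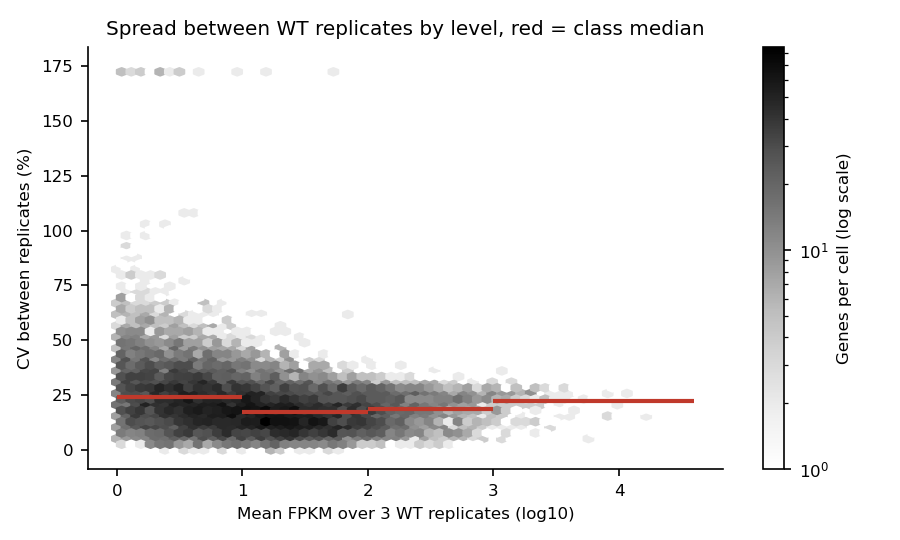
CV between the 3 WT replicates in percent against the mean FPKM on a log10 axis for genes with a mean of at least 1 FPKM, with darker cells for more genes and the median of each class of level in red. The class medians were 24.0%, 17.2%, 18.5% and 22.1%, and the line of points at 173% marks genes above 0 in a single library.

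The deviations between replicates followed the length of the transcript. Genes of at least 10 FPKM that were above 0 in all libraries and had an annotated transcript (8263 genes) were cut into deciles by length. In the shortest decile, with transcripts of 768 bases or less, replicate 1 lay 0.35 below the mean of the 3 replicates on the log2 scale as a median, given as -0.35, replicate 2 at 0.02 and replicate 3 at 0.32. In the longest decile, above 2096 bases, the medians were 0.06, -0.01 and -0.11. The ratio of replicate 3 to replicate 1 therefore ran from 1.60 in the shortest to 0.898 in the longest decile. GC content moved with the deviations too. In the decile with the highest GC content, replicate 2 lay at 0.09 and replicate 1 at -0.20. Length deciles held 21.4% of the variance of the deviations, GC deciles 12.1% and both together 31.8%, and the median SD of a gene went from 0.25 to 0.17 on the log2 scale with the means of length and GC classes taken off. The cause of these differences between libraries was not tested. Since the leading genes were also short, their levels and the length trend cannot be told apart by replicate.

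**Figure D4:**
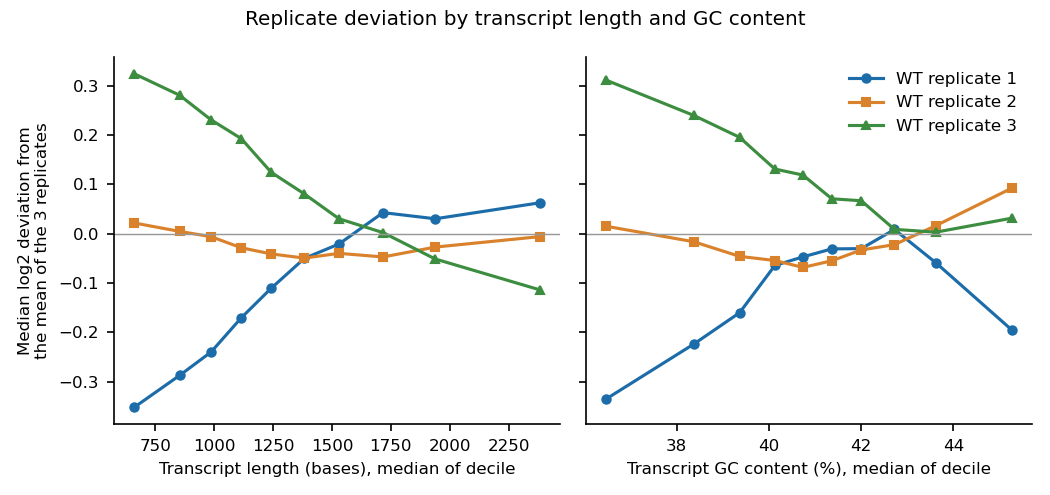
Median log2 deviation of each WT replicate from the mean of the 3 replicates, by deciles of transcript length in bases (left) and of transcript GC content in percent (right), over 8263 genes of at least 10 FPKM. Replicate 1 rose from -0.35 to 0.06 and replicate 3 fell from 0.32 to -0.11 with length, and replicate 2 was highest of the 3 at the highest GC content.

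Some genes hardly moved. AT5G52840, annotated as an NADH-ubiquinone oxidoreductase-like protein, stood at 248, 246 and 248 FPKM, and FER3, the iron store protein ferritin 3, at 33.2, 33.5 and 33.1. RRF, the ribosome recycling factor of the chloroplast, stood at 97.4, 96.2 and 97.4 and AT3G56340, a ribosomal protein S26e, at 553, 554 and 548. The 10 steadiest genes of at least 10 FPKM had CVs from 0.252% to 0.723%. They were picked as the lowest of all genes of that level, so their order is a description.

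At the other end stood the 10 genes with the highest CV at a mean of at least 10 FPKM. Those with an annotated length ran from 156 to 660 bases, against a median of 1605 over all loci with a length. Of the 10, 7 were above 0 in a single library. Among them were AT2G22241 (156 bases) at 0, 527 and 0 FPKM and U12, a small nuclear RNA, at 48.8, 0 and 0. In all, 20 loci were at 10 FPKM or more in one library and listed at 0 in another. Of the 19 with a length, 11 were under 300 bases, where 83 of 22881 loci of the table are that short. Among transcripts of at least 300 bases above 0 in all libraries, NRPB12, a small subunit of RNA polymerases, ranged over 85.2, 253 and 524 FPKM, CLE21, a signalling peptide gene, over 3.07, 9.25 and 20.5, and AT1G44414 over 5.94, 1.47 and 30.4. MAPR2, annotated as a membrane-associated progesterone binding protein, stood at 35.2, 16.1 and 68.8. All of these were highest in replicate 3. They were chosen after their values were seen.

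Genes often used as qRT-PCR references were not all steady. UBQ5, a ubiquitin gene, stood at 1192, 1148 and 1293 FPKM, YLS8, a splicing factor, at 253, 267 and 294, and EIF4A1, an initiation factor, at 110, 111 and 92.7. PP2AA3, a phosphatase subunit often used as a reference, stood at 26.8, 13.6 and 15.5, and ACT7, an actin, at 177, 111 and 103. UBQ10 at 251, 398 and 261 and AT5G60390 (EF1A, an elongation factor) at 246, 418 and 259 were high in replicate 2. The 18 genes had a median CV of 21.2%, close to the 20.2% of all genes with a mean of at least 1 FPKM, and the lowest was 6.12% for UBQ5.

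Of the 23069 loci, 19925 (86.4%) were above 0 and 14990 (65.0%) were at 1 FPKM or more in all 3 libraries. A total of 848 loci were listed at 0 in all 3, and 1421 in both others without replicate 1. The smallest value above 0 was 0.0577 in each library and occurred 580, 473 and 416 times, and 1348 loci were at or below it in all 3. An exact 0 can be a failed estimate as well as no fragments. The table holds rows for 21920 of the 27444 nuclear protein-coding genes of TAIR10.1, and 5524 (20.1%) had no row. Over all of these annotated genes, 53.2% were at 1 FPKM or more in all 3 libraries.

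Genes with no row or listed at 0 were shorter and more often of a single exon. A missing row is not a measured 0, since the filter on rows is not given in the sources used here and LHCB1.3, an antenna gene, has none. The median transcript was 778.5 bases for protein-coding genes with no row, 1284 for those listed at 0 and 1529 for those at 1 FPKM or more in all libraries. Genes of a single exon made up 32.8%, 27.2% and 15.5% of these classes. Within the expressed genes the order turned. The median coding length was 538 codons in the third decile by level and 179.5 in the highest decile, and 145 codons in the 100 most abundant nuclear genes.

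Detection was uneven along the chromosomes. In windows of 1 Mb with at least 20 protein-coding genes (118 windows), the median window had 52.9% of its genes at 1 FPKM or more in all libraries. The highest window reached 67.8%. The lowest were chromosome 3 from 13000001 to 14000000, with 2 of 25 genes, and chromosome 2 from 3000001 to 4000000, with 10 of 121. In these windows 20 of the 25 and 82 of the 121 genes had no row. A missing row is not a measured level, so the low shares do not show low expression there. Shares among genes with a row were not worked out. In all, 11 windows were under 30%.

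**Figure D5:**
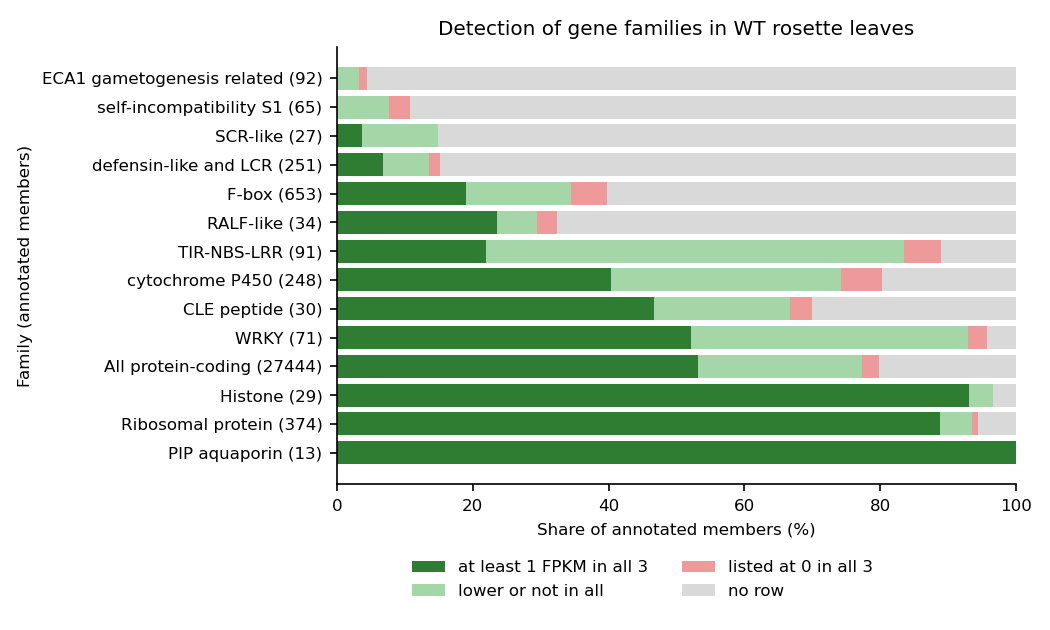
Share of annotated members in percent of gene families and of all protein-coding genes at 1 FPKM or more in all 3 WT libraries (dark green), lower or not in all (light green), listed at 0 in all 3 (red) or with no row (grey). The dark green share was 0% in the ECA1 and S1 families, 53.2% over all protein-coding genes and 100% in the PIP aquaporins.

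The families with the fewest detected members encode secreted peptides, several of them known from reproduction. Most of their members had no row, which is not a measured 0. Of 92 ECA1 gametogenesis related genes, 4 had a row and none was at 1 FPKM or more in every library. Of 65 self-incompatibility S1 genes, 7 had a row and again none was, and of 27 SCR-like genes 1 was, SCRL7, at 48.3, 61.1 and 84.9 FPKM. Among 251 genes annotated as defensin-like or LCR, 17 (6.77%) were at 1 FPKM or more in all libraries, beside the 53.2% of all protein-coding genes, and one of these was PDF1.2. The same peptide class thus held both silent genes and one of the most abundant of the leaf.

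Families of regulators, enzymes and other peptides had larger shares detected, beside 53.2% of all protein-coding genes. Of 653 F-box genes, which choose proteins for breakdown, 124 (19.0%) were at 1 FPKM or more, led by the Kelch repeat gene AT1G23390 at 208, 264 and 338 FPKM. Of 91 TIR-NBS-LRR resistance genes 20 were, with AT5G46490 the highest at 14.6, 14.2 and 14.8. WRKY factors (37 of 71, 52.1%) were close to that share and were led by WRKY15 at 71.4, 91.5 and 109 and WRKY70 at 73.1 ± 25.3 (SD, n = 3). Of 34 RALF-like peptide genes 8 (23.5%) were, among them RALF23 at 375, 528 and 721, and of 30 CLE peptide genes 14 (46.7%) were. The cytochrome P450 genes (100 of 248, 40.3%) were led by CYP86A2, a fatty acid hydroxylase of cutin synthesis, at 325, 434 and 478.

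Markers of other organs were low or had no row, which is not a measured 0. Of 14 root markers 8 had a row, and all 8 flower markers did. None of them was at 1 FPKM or more in all libraries, beside 53.2% of all protein-coding genes. The highest were FRO2, the ferric reductase of iron uptake, at 1.67, 0.913 and 0.766 FPKM, and PI, a petal and stamen identity gene, at 0.800, 1.82 and 1.11. Of 6 pollen markers 5 had no row and DUO1 was listed at 0. Of 19 seed markers 14 had a row and 2 were at 1 FPKM or more in all libraries. These were OLEO4, an oleosin of oil bodies, at 4.36, 7.47 and 7.83, and GEA6 (EM6) at 1.08, 2.14 and 1.63.

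Most non-coding and pseudogene loci of TAIR10.1 had no row, which is not a measured 0. The annotation and the filter behind the rows are not given in the sources used here. Of all loci with a row, 65.0% were at 1 FPKM or more in all libraries. Rows existed for 195 of 3480 lncRNA, 24 of 326 miRNA, 2 of 287 snoRNA and none of 625 nuclear tRNA loci. The class annotated as ncRNA was the exception, with rows for 132 of 221 loci, 86 at 1 FPKM or more in all libraries and 0.455%, 0.512% and 0.534% of the FPKM sum, and AT3G06125 led it at 870.1, 1217 and 1485 FPKM. Most miRNA precursors and small RNAs are short, and the method of RNA selection is not given in the sources used here. Among 3917 pseudogene loci 352 had a row and 48 were at 1 FPKM or more in all libraries. The highest was SADHU1-1, a retroposon of the Sadhu family, at 294, 360 and 412 FPKM, followed by Sadhu4-2 at 51.3, 69.4 and 76.0. Of 926 loci annotated as transcribed pseudogenes 240 had a row and 49 were at 1 FPKM or more in all libraries, led by AT4G04692 at 301, 432 and 499 and AT2G16367 at 239, 312 and 476 FPKM. Transposable element genes were not a class of their own in the annotation.

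The chloroplast genome gave 2.33%, 2.04% and 2.86% of the FPKM sum over 67 loci, of which ATCG01020 alone made up 78.0%, 80.0% and 84.6%. The mitochondrial genome gave 0.0133%, 0.0154% and 0.0147% over 58 loci, led by ATMG01080 at 38.0, 59.0 and 68.4 FPKM. ATCG00300 varied most among organelle loci of at least 10 FPKM, at 19.0, 48.3 and 140 FPKM.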

How the data were processed

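RNA was taken from rosette leaves and sequenced as read pairs. Per the labels and methods, the authors aligned RNA-seq reads with TopHat2 2.0.9 to TAIR10 and deposited FPKM per gene from Cufflinks, with no counts and no coordinates. Version of Cufflinks, annotation, use of strand and filter on rows are not given in the sources used here. The 3 WT columns were used as deposited. Names, lengths and positions came from RefSeq TAIR10.1, where 22881 of 23069 loci matched. Organelle loci had no match and are given by ID.

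With 1 group of 3 samples no test was made. Levels are means ± SD, and CVs follow median-ratio scaling (Python 3.11.15, pandas 2.3.3, numpy 2.4.6). On simulated libraries of 16025 genes a CV of 20% gave a median of 16.3%, so a CV from 3 samples runs low. Low FPKM values lay only in part on steps of whole fragments. At the scale chosen to fit best, 42.1% to 47.1% of values worth 1 to 4 fragments were within 0.05 of a whole number, so fragments per gene were not recovered from the table. The study lists similar mapped reads for each WT library, and no value of that list is used here. Members, lists and named genes (the 30 most abundant, the 10 highest and 10 lowest CVs at 10 FPKM or more, listed genes, and leading family members) were chosen with earlier results of these data known.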

Additional observations from a re-analysis of the deposited data

How the results depend on the processing

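Shares, counts and spreads were recomputed under 106 alternatives, of which 94 stayed within the spread between replicates or within 1.5 times of a count. All 52 alternatives for the shares of 13 gene lists were among them. Most of these left out 1 library at a time, where the mean cannot shift by more than the SD between libraries. The same holds for the shares of the 10, 100 and 1000 most abundant genes with 1 library left out. Those labels were fixed beforehand and show nothing about how stable the shares are. Weighting FPKM by transcript length, added after the data were seen, also leaves out organelle loci, which have no annotated length, and gave 8.93%, 33.2% and 67.6% for the 10, 100 and 1000 most abundant genes, in place of 11.8%, 37.3% and 73.6%. Leaving out organelle loci alone gave 10.8% for the first. The count of silent loci depended on the threshold: 848 were listed at 0 in all libraries, 1348 with the lowest recurring value counted as not detected (added after the data were seen), 1799 were under 0.1 FPKM and 6138 under 1 FPKM. Leaving out 1 WT replicate at a time gave 1156 to 1421 silent loci, the highest without replicate 1, since fewer libraries had to be at 0. The median CV was 12.4% to 20.9% with 1 replicate left out, 12.4% without replicate 1, and 15.3% with medians of length by GC classes taken off, also added later. The mean correlation of 0.969 became 0.980 with a pseudocount of 1 and 0.956 with 0.01, and 0.965 to 0.974 with 1 replicate left out. No paired analysis was possible because the WT is a single group here and no result comes from a test. Counting error was not worked out here, and genes near 0.1 FPKM or under 300 bases rest on the fewest fragments.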
